A study of Mus musculus with 6 samples.

Results

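Rgs2, Rgs4, Rgs5, Rgs9 and Rgs16 were followed in the striatum of Hdh4/Q80 mice and wild-type littermates. These 5 genes encode regulators of G protein signalling (RGS proteins). Members were all probe sets whose platform annotation named exactly 1 gene symbol and that symbol was one of the 5. The rule found 7 of the 12422 probe sets tested: 1 each for Rgs2, Rgs4 and Rgs9, and a pair each for Rgs5 and Rgs16. All 5 genes, of 8251 named on the arrays, were measured. RNA came from 3 Hdh4/Q80 mice (replicates 7, 8 and 9) and 3 wild types (replicates 4, 5 and 6), on 1 Affymetrix array each. By the labels all 6 mice were C57BL/6 females aged 12 months. The Hdh4/Q80 line, which the labels call transgenic, has a lengthened CAG repeat in its own huntingtin gene (Htt), the gene of Huntington's disease; no label states its zygosity. The wild types carry no such allele by the labels, and no treatment is named for either group. The comparison asks whether these transcripts differ in level between mutant and wild-type striatum.

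RGS proteins speed the hydrolysis of GTP on G protein alpha subunits and so shorten the signal of G protein-coupled receptors. In the striatum such receptors carry the dopamine, adenosine, acetylcholine, opioid, cannabinoid and glutamate signals that set the activity of spiny projection neurons. Rgs2, Rgs4, Rgs5 and Rgs16 are small members of the R4 class, little more than the RGS domain with a short amino-terminal stretch. Rgs9 belongs to the larger R7 class, whose proteins are held stable by the G protein beta subunit Gnb5, and it is known for its enrichment in striatum. Rgs4, Rgs5 and Rgs16 proteins are short-lived targets of the N-degron pathway, which destroys proteins by their amino-terminal residue, so transcript and protein need not move together.

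Every value below is a log2 expression value of a probe set, and every difference is Hdh4/Q80 minus wild type on that scale. On the 6 arrays the values ran from 2.57 to 13.42, array medians from 7.10 to 7.13, and lower quartiles from 5.79 to 5.86. Hdh4/Q80 replicate 8 stood apart from the rest: its mean correlation with the other arrays over all probe sets was 0.992, against 0.995 to 0.997 for the remaining 5 mice. Of 17 listed markers of striatal projection neurons 9 were measured, among them Penk, the enkephalin precursor, at 12.94, 13.14 and 13.03 in Hdh4/Q80 and 13.14, 13.00 and 12.92 in wild type, close to the top of the arrays. This marker of the labelled tissue was thus read on every array, though by a probe set that can bind related transcripts. Its other probe sets were dimmer, with means of 8.65 and 3.34 in Hdh4/Q80 and 8.84 and 3.47 in wild type. In whole tissue, fewer cells of a type and less RNA per cell cannot be told apart.

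None of the 7 member probe sets passed the test. In limma, with p-values adjusted by Benjamini-Hochberg over all probe sets and a threshold of 0.05, 0 of 7 were called, as were 0% of all 12422. At an unadjusted p under 0.05 there was 1 of 7, Rgs2, against 5.10% of all probe sets in either direction and 2.21% lower in Hdh4/Q80. The same single probe set had Hdh4/Q80 and wild-type mice that did not overlap, which held for 11.7% of all probe sets. Differences were below 0 for 3 of the 7 and above 0 for 4, with a median of 0.03. Of all probe sets 51.1% lay below 0, with a median of 0.00. For all 7 the 95% interval lay within a 1.5-fold change in either direction on the array scale, and smaller changes are not excluded.

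**Figure D1:**
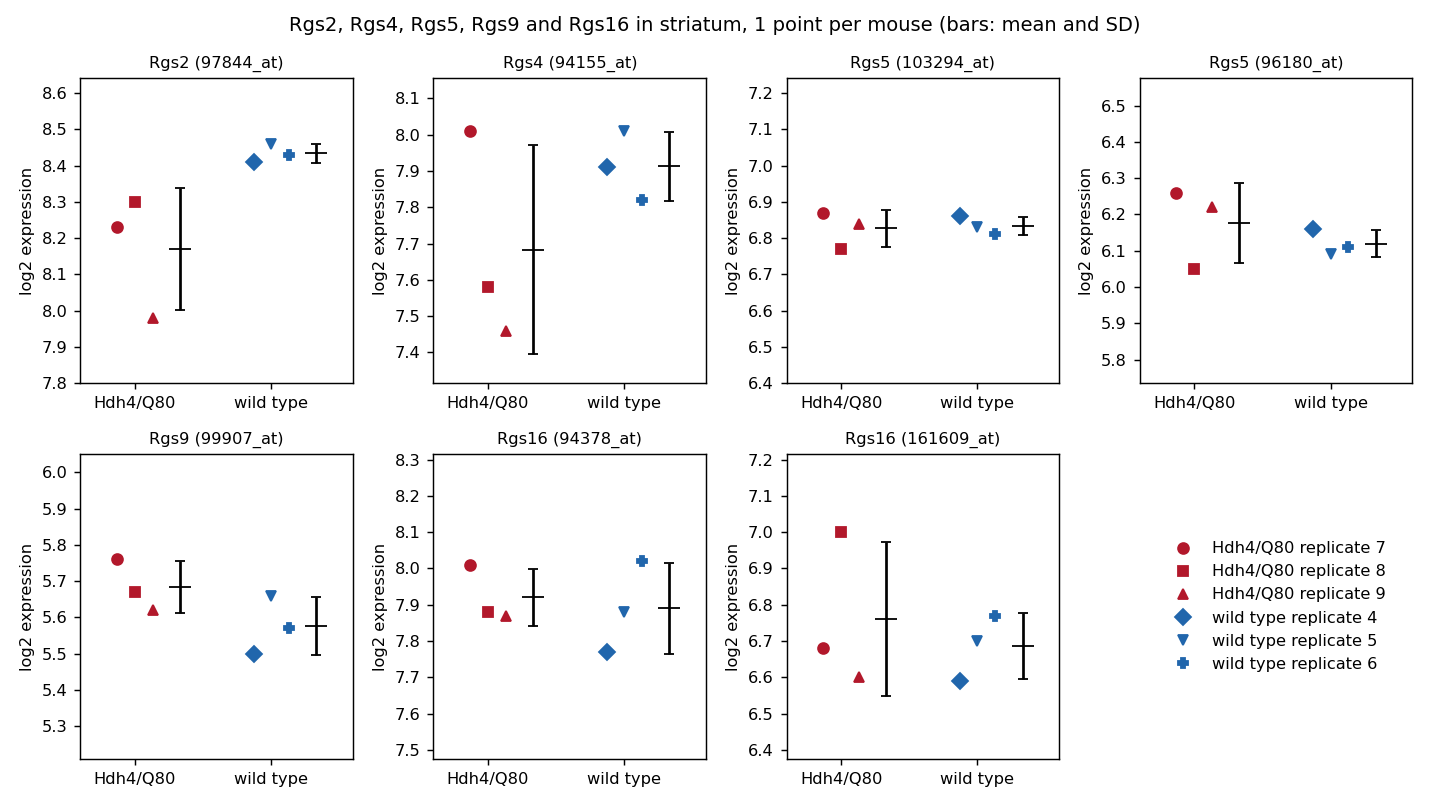
Log2 expression of the 7 member probe sets, 1 point per mouse, Hdh4/Q80 on the left and wild type on the right of each panel, with the mean and SD of the 3 mice as a bar. Every panel spans the same log2 range. Only in the Rgs2 panel do the Hdh4/Q80 points (7.98 to 8.30) all lie below the wild types (8.41 to 8.46).

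The promoters of Rgs2 and Rgs4 are shown because these genes had the most negative differences of the 5. Each run is the 250 bases before the annotated start, from RefSeq on GRCm38.p6, minus strand, written 5′ to 3′, with 3 searched motifs in capitals. The motifs were the core letters of the cAMP response element (CGTCA), the TATA box (TATAAA) and the CCAAT box (CCAAT), each on both strands, and none of their matches overlap in these runs.
Rgs2, chr1:144004150-144004399: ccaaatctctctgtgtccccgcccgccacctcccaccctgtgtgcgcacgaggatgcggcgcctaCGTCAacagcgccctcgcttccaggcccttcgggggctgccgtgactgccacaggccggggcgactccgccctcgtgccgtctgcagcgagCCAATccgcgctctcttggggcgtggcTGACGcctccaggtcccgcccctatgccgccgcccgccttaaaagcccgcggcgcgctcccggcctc
Rgs4, chr1:169747643-169747892: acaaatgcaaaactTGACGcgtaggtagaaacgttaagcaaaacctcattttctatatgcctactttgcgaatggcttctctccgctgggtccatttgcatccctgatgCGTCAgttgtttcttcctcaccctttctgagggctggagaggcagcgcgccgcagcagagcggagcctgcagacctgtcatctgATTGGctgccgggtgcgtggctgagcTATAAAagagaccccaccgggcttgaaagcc
Rgs2 held CGTCA or its complement 2 times, starting 185 and 67 bases before the start, and Rgs4 also 2 times, at 236 and 141 bases. The same windows of Rgs5, Rgs9 and Rgs16 held 0. Taking 1 promoter per gene, 17.9% of 27025 held this motif. TATAAA lay 31 bases before the start of Rgs4 and 195 before that of Rgs9, and was in 13.0% of all promoters. A CCAAT box was in all 5 members, between 25 and 94 bases before the start, and in 34.5% of all promoters. GC content was 72.4% for Rgs2 and 53.6% for Rgs4. The motifs were picked after the values were known, and these matches describe the letters of the window and say nothing of binding.

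Rgs2 encodes the member that acts preferentially on the Gq alpha subunit, and its transcript is readily induced by neuronal activity. It read 8.23, 8.30 and 7.98 in Hdh4/Q80 replicates 7, 8 and 9, against 8.41, 8.46 and 8.43 in wild-type replicates 4, 5 and 6. All mutants lay below all wild types, which was the case for 5.05% of all probe sets, and replicate 9 was the lowest mouse. The means were 8.17 ± 0.167 in Hdh4/Q80 and 8.43 ± 0.0247 in wild type (SD, n = 3 mice each). The difference was -0.26 ± 0.0886 (SE; 95% interval -0.46 to -0.06), or 1.20-fold lower. It had an unadjusted p of 0.0148, rank 151 among all probe sets, and it did not pass (adjusted p = 0.857, limma). With 1 mouse left out the difference ran from -0.32 (without Hdh4/Q80 replicate 8) to -0.17 (without replicate 9). The wild types were tightly grouped, and the spread within both groups (pooled SD 0.119) compares with a median of 0.099 over all probe sets.

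Rgs4, an R4 member that acts on Gi and Gq alpha subunits and is abundant in forebrain neurons, split the mutants. It read 8.01, 7.58 and 7.46 in Hdh4/Q80 replicates 7, 8 and 9, against 7.91, 8.01 and 7.82 in wild-type replicates 4, 5 and 6. Replicate 7 was level with the highest wild type, while replicates 8 and 9 lay below all 3 wild types. The means were 7.68 ± 0.285 in Hdh4/Q80 and 7.91 ± 0.0934 in wild type (SD, n = 3 mice each). The difference was -0.23 ± 0.127 (SE; 95% interval -0.51 to 0.06), with p-values in limma's test of 0.104 unadjusted and 0.857 adjusted. Its pooled SD of 0.212 was larger than that of 95.5% of all probe sets, the largest spread of the 7. Without replicate 7 the difference was -0.39 (adjusted p = 0.444), and without replicate 9 it was -0.12 (0.677). With limma's array weights, which rested the mutant side mainly on replicate 7 (weight 6.18, against 0.228 for replicate 8 and 0.405 for replicate 9), the difference was 0.06.

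Rgs16, an R4 member acting on Gi and Gq alpha subunits, was read by a pair of probe sets with small positive differences. The brighter one gave 8.01, 7.88 and 7.87 in Hdh4/Q80 mice, against 7.77, 7.88 and 8.02 in wild types, so that the groups overlapped fully. Its difference was 0.03 ± 0.0837 (SE; 95% interval -0.16 to 0.21; adjusted p = 0.959 in limma's test). The dimmer one gave 6.68, 7.0 and 6.60 in Hdh4/Q80 mice, against 6.59, 6.70 and 6.77 in wild types, a difference of 0.07 ± 0.105 (interval -0.16 to 0.31; adjusted p = 0.917). On this probe set replicate 8 was the highest of the 6 mice, and without it the difference was -0.05. The brighter probe set also changed sign, to -0.03 without wild-type replicate 4 and -0.02 without Hdh4/Q80 replicate 7.

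Rgs5, an R4 member known as a marker of pericytes and other mural cells of vessels, varied little on its brighter probe set. That one probe set read 6.87, 6.77 and 6.84 in Hdh4/Q80 mice, against 6.86, 6.83 and 6.81 in wild types. All 6 mice lay within 0.11 of each other, and only 6.38% of all probe sets had a smaller pooled SD. The difference was -0.01 ± 0.067 (SE; 95% interval -0.16 to 0.14; adjusted p = 0.988 in limma's test), and its sign changed with the mouse left out (-0.03 to 0.02). The dimmer probe set read 6.26, 6.05 and 6.22 in Hdh4/Q80 mice, against 6.16, 6.09 and 6.11 in wild types, with a difference of 0.06 ± 0.0774 (interval -0.12 to 0.23; adjusted p = 0.908). It ran from 0.01 to 0.12 with 1 mouse left out, and was 0.14 with array weights (unadjusted p = 0.014, adjusted p = 0.219 in limma). Of 11 measured markers of mural cells, among them the receptor Pdgfrb and the channel gene Kcnj8, 6 were below 0 and 5 above, with a median of -0.02 and 0 called. Their mean level was 6.81 to 6.87 in Hdh4/Q80 mice and 6.83 to 6.88 in wild types.

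Rgs9, the R7 member for which striatal enrichment is best known, had a low reading on these arrays. It read 5.76, 5.67 and 5.62 in Hdh4/Q80 mice, against 5.50, 5.66 and 5.57 in wild types. Replicate 7 and, narrowly, replicate 8 (5.67 against 5.66) lay above all wild types, but replicate 9 lay below wild-type replicate 5. The means were 5.68 ± 0.0718 in Hdh4/Q80 and 5.58 ± 0.0823 in wild type (SD, n = 3 mice each), a difference of 0.11 ± 0.0749 (SE; 95% interval -0.06 to 0.28; adjusted p = 0.857 by limma), which stayed between 0.07 and 0.15 with 1 mouse left out. With array weights it was 0.17 (unadjusted p = 0.00758, adjusted p = 0.183 in limma), a setting in which 14.6% of all probe sets had an unadjusted p under 0.05. All 6 values lay below the lower quartile of their array, where RMA compresses differences. Which splice form the probe set reads was not looked up here. Gnb5, the beta subunit that stabilises R7 proteins and the only listed R7 partner measured, read 8.05, 7.98 and 8.20 in Hdh4/Q80 mice, against 8.45, 8.14 and 8.06 in wild types. Its difference was -0.14 ± 0.107 (SE; adjusted p = 0.857), and wild-type replicate 4 was its highest mouse. It was -0.02 without that mouse and -0.22 without wild-type replicate 6.

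Of 16 other Rgs genes 8 were measured, and on their brightest probe sets 4 were below 0 and 4 above, with a median of -0.01, 0 called and 0 at an unadjusted p under 0.05. In all 8 the groups overlapped. The R7 gene Rgs11 had the most positive difference, 0.11 (95% interval -0.07 to 0.29), and read 9.38, 9.36 and 9.58 in Hdh4/Q80 mice, against 9.40, 9.28 and 9.31 in wild types. The other R7 genes Rgs6 and Rgs7 differed by -0.06 and -0.02. Rgs8, an R4 gene known from Purkinje cells, differed by -0.08 on a probe set that can bind related transcripts. Rgs3, Rgs10, Rgs14 and Rgs19 differed by 0.06, -0.01, 0.00 and 0.08. The Rgs10 value was 0.01 after quantile or cyclic loess normalization. Dimmer probe sets of Rgs10 differed by 0.15 and 0.00, that of Rgs11 by 0.17, and those of Rgs19 by 0.03 and -0.07, so for Rgs10 and Rgs19 the signs disagreed. Rgs10 is known as a microglial member and Rgs14 as one of hippocampal area CA2 and striatum. The 7 measured proteins outside the Rgs genes that carry an RGS domain, such as the receptor kinase Grk6 (-0.07) and the scaffold Axin2 (-0.07), had a median of -0.01 and 0 called.

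**Figure D2:**
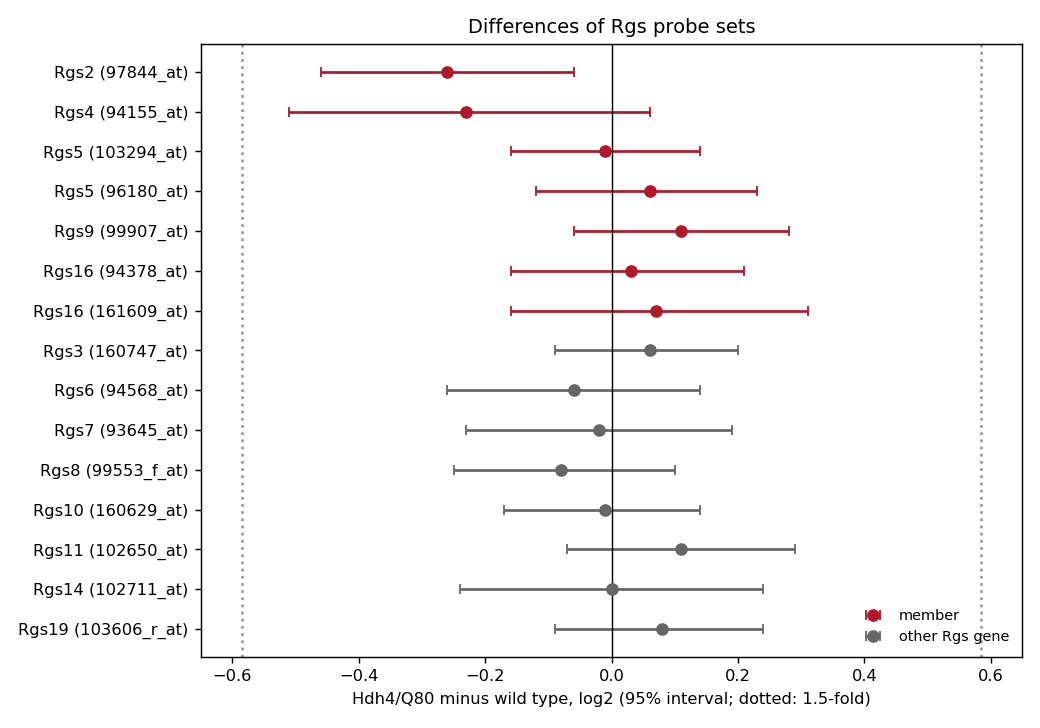
Differences (Hdh4/Q80 minus wild type, log2) with 95% intervals from limma for the 7 member probe sets, in red, and the brightest probe set of the 8 other measured Rgs genes, in grey. Dotted lines mark a 1.5-fold change in either direction. The Rgs2 interval (-0.46 to -0.06) is the one that leaves out 0, and no probe set passed the adjusted test.

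The G proteins on which RGS proteins act, the receptors above them and the effectors below gave 0 calls. Of 14 measured alpha subunits 9 were below 0 (median -0.06), and of 10 beta and gamma subunits 5 were (median 0.00). Gna12, an alpha subunit of the G12/13 class, read 8.53, 8.30 and 8.61 in Hdh4/Q80 mice, against 8.62, 8.63 and 8.76 in wild types, a difference of -0.19 ± 0.0907 (SE; adjusted p = 0.857 in limma's test). Its groups did not overlap, and its other probe set differed by -0.24. Gna14, an alpha subunit of the Gq class, read 3.84, 3.92 and 3.94 in Hdh4/Q80 mice, against 3.77, 3.83 and 3.68 in wild types, all below the lower quartile of their array (difference 0.14, unadjusted p = 0.0762 in limma). Gnaz, a slow alpha subunit of the Gi family, differed by -0.14, and Gnas, which encodes the stimulatory alpha subunit, by -0.23, with 0.04 and -0.02 on its other probe sets. Gnb4, a beta subunit, read 6.63, 6.62 and 6.61 in Hdh4/Q80 mice, against 6.38, 6.47 and 6.53 in wild types, a difference of 0.16 ± 0.0689 (SE; unadjusted p = 0.0433, adjusted p = 0.857). The gamma subunits Gng11 and Gng12 also had groups that did not overlap. Gng11 differed by -0.15, with -0.17 on its other probe set, and Gng12 by 0.12, with 0.01 on its other probe set. On brightest probe sets, mutants were all below the wild types for 1 of 14 alpha and 1 of 10 beta and gamma subunits. They were all above for 1 and 2 of these. The shares over all probe sets were 5.05% and 6.67%. An unadjusted p under 0.05 was found for 0 of 14 and 1 of 10, against 5.10%.

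Of 13 measured striatal receptors 7 were below 0 (median -0.01, 0 called). The dopamine receptor Drd4 (0.10) and the mu opioid receptor Oprm1 (0.08) had mutants all above the wild types, Oprm1 on a dim probe set. That order held for 2 of the 13 receptors, against 6.67% of all probe sets, and both had an unadjusted p above 0.05. The dopamine receptor Drd3 (0.11) and the kappa opioid receptor Oprk1 (0.08) overlapped between groups. Of 17 measured effectors 11 were below 0 (median -0.02, 0 called). Cacna1a, the pore subunit of P/Q-type calcium channels, read 7.42, 7.0 and 7.01 in Hdh4/Q80 mice, against 7.33, 7.41 and 7.51 in wild types. Its difference was -0.27 ± 0.114 (SE; unadjusted p = 0.0394, adjusted p = 0.857), and like Rgs4 it was low in replicates 8 and 9 and within the wild-type range in replicate 7. Among 5 measured genes of the N-degron pathway, which degrades Rgs4, Rgs5 and Rgs16 proteins, 2 were below 0 (median 0.03, 0 called). The arginyl transferase Ate1 differed by 0.03 and the recognition ligase Ubr1 by 0.08, both below the lower quartile of all 6 arrays. Without the dimmest 40% of probe sets the median of this list was -0.06.

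Activity-induced genes differed between mice in an order that was partly that of Rgs4. Of 12 measured genes 10 were below 0 (median -0.10, 0 called). Their mean level was 7.75, 7.44 and 7.37 in Hdh4/Q80 replicates 7, 8 and 9, against 7.50, 7.75 and 7.82 in wild-type replicates 4, 5 and 6. Replicates 8 and 9 were thus the lowest in this list as for Rgs4, while wild-type replicate 4 was low here but above all mutants for Rgs2 and at the wild-type mean for Rgs4. Egr1, a transcription factor, read 9.87, 9.59 and 9.67 in Hdh4/Q80 mice, against 10.04, 10.06 and 10.11 in wild types, with no overlap. It was 1 of the 12 with mutants all below the wild types, against 5.05% of all probe sets. Its difference was -0.36 (unadjusted p = 0.00164, rank 15 among all probe sets, adjusted p = 0.857 in limma). Its second, dim probe set had the opposite sign (0.32, unadjusted p = 0.0343 in limma). Fos, another transcription factor, read 6.48, 5.13 and 4.87 in Hdh4/Q80 mice, against 4.98, 6.47 and 6.52 in wild types, so that low mice were found in both groups. The 3 low values lay below the lower quartile of their array. Its difference was -0.50 here and 0.19 on its second probe set. The nuclear receptor Nr4a1 read 8.40, 7.74 and 7.58 in Hdh4/Q80 mice, against 7.96, 8.51 and 8.74 in wild types.

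Markers of neighbouring tissue also differed between mice. The 4 measured markers of choroid plexus, the secretory tissue of the ventricles, were all above 0 with a median of 0.57, and 0 were called. Their mean level was 7.11, 8.20 and 8.49 in Hdh4/Q80 replicates 7, 8 and 9, against 7.12, 7.08 and 7.85 in wild-type replicates 4, 5 and 6. Ttr, the transthyretin gene that defines the list, read 8.46, 10.59 and 11.24 in Hdh4/Q80 mice, against 8.48, 8.32 and 10.26 in wild types. The 3 mice highest in the mean of this list, replicates 9, 8 and 6, had the 3 lowest Rgs4 values in the same order. The list marker Aqp1 did not follow that order, with 7.43 in replicate 9 and 7.38 in wild-type replicate 6, against 7.48 in replicate 7. The part of these markers in the Rgs4 difference was not tested. For Rgs2, wild-type replicate 6 (8.43) lay above all mutants, and replicate 7, low in this list, lay below all wild types. The 6 measured cortical projection neuron markers had 5 below 0, with a median of -0.10 that was 0.07 without wild-type replicate 6 and -0.01 without Hdh4/Q80 replicate 8, and levels of 6.60 to 6.95 in Hdh4/Q80 mice and 6.74 to 7.23 in wild types. Camk2a, a kinase abundant in cortical neurons and also present in striatum, read 9.92, 9.26 and 9.07 in Hdh4/Q80 mice, against 9.33, 10.00 and 10.18 in wild types. Tbr1, a defining cortical transcription factor, was highest in wild-type replicate 6 (8.04) and lowest in Hdh4/Q80 replicate 8 (5.95). The part of these markers in the Rgs differences was not tested.

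**Figure D3:**
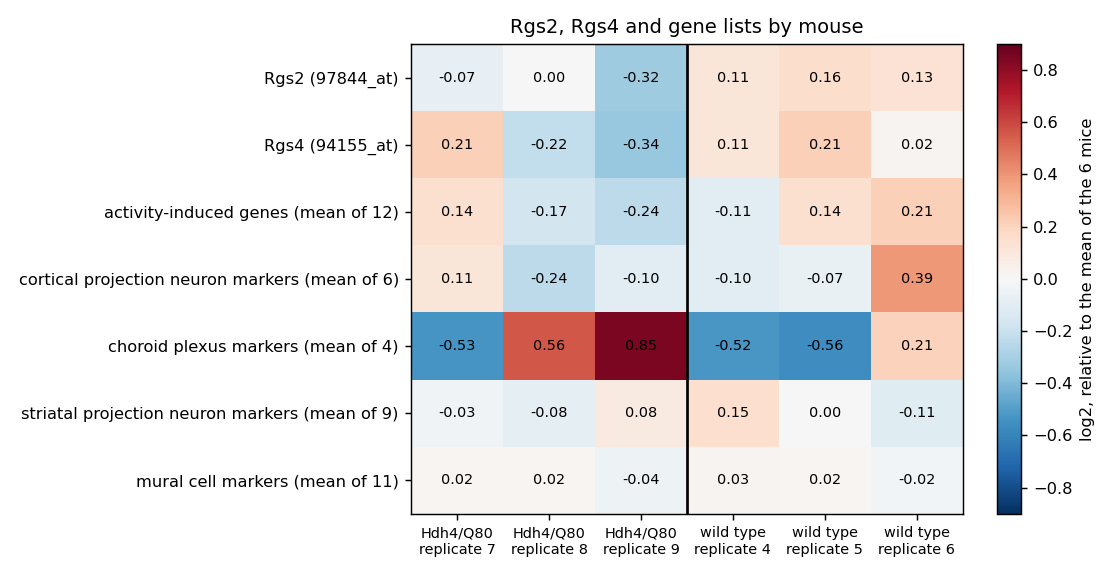
Rgs2, Rgs4 and the mean of 5 gene lists in each mouse, as the log2 difference from the mean of the 6 mice, with Hdh4/Q80 left of the black line and wild type right of it. Replicates 8 and 9 are low for Rgs4 and for the activity-induced genes and high for the choroid plexus markers, while replicate 7 is not. Wild-type replicate 4 is also low for the activity-induced genes, and wild-type replicate 6 is also high for the choroid plexus markers. All 3 wild types lie above the 3 mutants for Rgs2.

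Of 11 microglia markers 9 were below 0 (median -0.07), with mean levels of 7.75 to 7.89 in Hdh4/Q80 and 7.89 to 8.00 in wild type. The complement genes C1qa (-0.28), C1qb (-0.35) and C1qc (-0.32) and the signalling adaptor Tyrobp (-0.21) had mutants all below the wild types and an unadjusted p under 0.05. These were 4 of the 11, against 5.05% of all probe sets for the order and 5.10% for the p. Without Hdh4/Q80 replicate 8 their differences lay between -0.19 and -0.12. For C1qb the sign depended on the probe set. Its less bright one was higher in Hdh4/Q80 (mean 7.22) than in wild type (6.98), by 0.24 (unadjusted p = 0.0465 in limma's test). Of 9 oligodendrocyte markers 7 were below 0 (median -0.06), with mean levels of 9.06 to 9.15 in Hdh4/Q80 and 9.17 to 9.26 in wild type. Among them the myelin genes Mobp (-0.31, unadjusted p = 0.00295 in limma's test) and Mal (-0.23, unadjusted p = 0.00623) had mutants all below the wild types. These were 2 of the 9, against 5.05% of all probe sets for the order and 5.10% for the p. The other probe sets of Mobp differed by -0.15, -0.50 and -0.51. Rgs2 had the same order of groups as these named genes on their brightest probe sets and as the oligodendrocyte level. The microglia level met at 7.89 in Hdh4/Q80 replicate 7 and wild-type replicate 4. The part of both lists in the Rgs2 difference was not tested. Of 9 astrocyte markers 6 were below 0 (median -0.11), of 10 endothelial markers 4 (median 0.00), and of 6 thalamic markers 2 (median 0.04). Mutants were all below the wild types for 1 of the 10 endothelial markers, Vwf (-0.30, unadjusted p = 0.00327 in limma's test). Its other probe set differed by -0.04. Of the 9 astrocyte markers 1 was all below, S100b (-0.19), and 1 all above, Glul (0.20, but -0.23 on its other probe set). The thalamic marker Gbx2 (0.08) was all above. The shares over all probe sets were 5.05% below and 6.67% above. The striatal projection neuron markers had 4 of 9 below 0 (median 0.01), with levels of 9.62 to 9.78 in Hdh4/Q80 and 9.59 to 9.85 in wild type. Among them Gad1 had mutants all above the wild types (0.26, unadjusted p = 0.00862 in limma's test). It was 1 of the 9, against 6.67% of all probe sets for this order. In all of these lists 0 genes were called.

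No common course of the members was detected over the 6 mice, and so few mice cannot exclude one. Of the 10 pairs of members, each on its brightest probe set, Rgs2 and Rgs4 had the highest correlation (Pearson r = 0.70, exact permutation p = 0.107; Spearman rho = 0.60, p = 0.242). After adjustment over the 10 pairs these permutation p-values were 0.990 and 0.793, and no pair passed. Without the 2 mice farthest from the median of Rgs2, Hdh4/Q80 replicates 7 and 9, r was 0.96 over the remaining 4. Of these, 3 were wild types at 8.41 to 8.46 and 1 was Hdh4/Q80 replicate 8 at 8.30, so that value rests on 1 mouse. Over the 10 pairs, r without 2 mice ran from -0.99 to 0.96, each over 4 mice. Rgs4 and Rgs5 followed with r = 0.51 (exact permutation p = 0.304; rho = 0.37, p = 0.497), as did Rgs9 and Rgs16 with r = 0.51 (exact permutation p = 0.324; rho = 0.37, p = 0.497). The pair of Rgs9 and Rgs16 had r = -0.82 without wild-type replicate 4 and Hdh4/Q80 replicate 7, so it rests on those mice. Rgs4 and Rgs5 had r = 0.62 without Hdh4/Q80 replicates 8 and 9.

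The genes most like each member over the 6 mice were ranked by Pearson correlation with the brightest probe set of the other 8250 genes. With so few mice high values are common: 47 genes exceeded 0.9 for Rgs2, 79 for Rgs4, 81 for Rgs5, 30 for Rgs9 and 35 for Rgs16. The values share array and normalization, so they serve as a description. For Rgs2 the 3 nearest were Has1 (0.989), Fgf17 (0.981) and Slc3a1 (0.980). For Rgs4 they were Zic4 (0.987), Pld4 (0.987) and Rexo1 (0.986), for Rgs5 Polr3d (0.991), Epor (0.985) and Kcna4 (0.981). For Rgs9 they were H2-Eb2 (0.972), Psca (0.969) and Psmc4 (0.967), and for Rgs16 Tbcel (0.984), Mcpt-ps1 (0.972) and Apaf1 (0.971). Differences of these 15 genes lay between -0.13 and 0.09, smaller than those of Rgs2 and Rgs4.

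In the RefSeq gene order Rgs2, Rgs4, Rgs5 and Rgs16 lie on chromosome 1 and Rgs9 on chromosome 11. Rgs4 and Rgs5 are direct neighbours among protein-coding genes, and Rgs16 lies next to Rgs8. Rgs4 differed by -0.23 and Rgs5 by -0.01 on its brighter probe set, though the difference between them was not tested. Among genes up to 2 places away, 8 that are not members were measured, with differences from -0.08 (Rgs8) to 0.07 (Ro60), and 0 had an unadjusted p under 0.05. Rgs9 lies between Axin2 (-0.07) and Gna13 (-0.05), which encode another RGS-domain protein and a G protein alpha subunit.

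**Figure D4:**
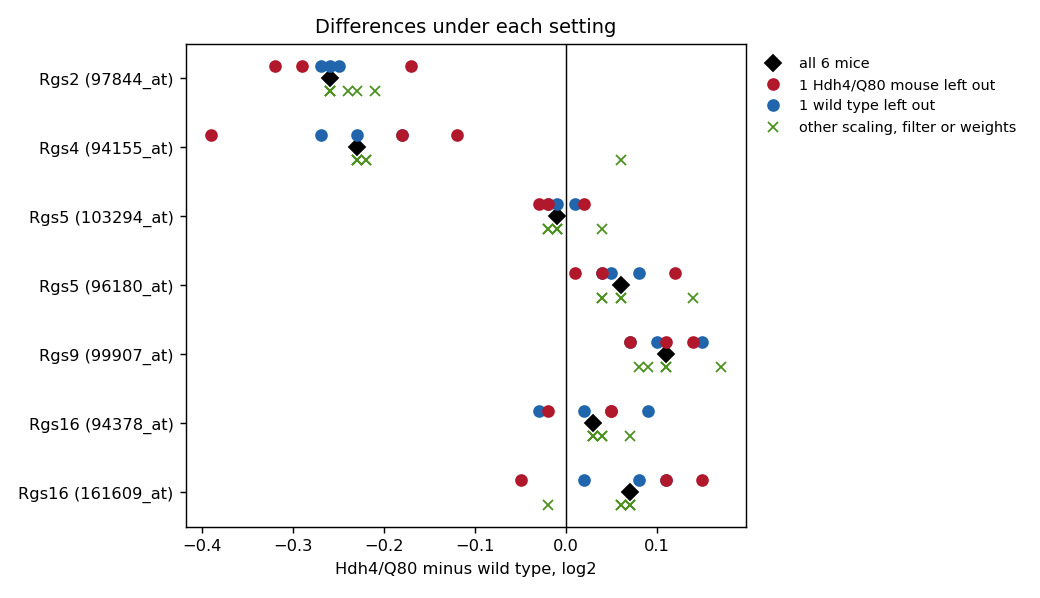
Differences (Hdh4/Q80 minus wild type, log2) of the 7 member probe sets with all 6 mice (black diamonds), with 1 Hdh4/Q80 mouse left out (red), with 1 wild type left out (blue) and with another scaling, filter, moderation or array weights (green crosses). Rgs2 stays between -0.32 and -0.17, while the Rgs4 value with array weights (0.06) lies on the other side of 0.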

How the data were processed

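Striatal RNA of 6 mice was hybridised to 1 Affymetrix array each. The deposited table holds a log2 value for each probe set, computed by RMA with affy according to the submitters' processing notes, which name no versions. RMA evens out array distributions and compresses dim and bright differences. Detection calls were not used here, and the number of arrays limits precision. Of 12488 probe sets 66 controls were left out, and no filter on dim values was applied. Symbols came from a platform annotation: 10833 probe sets named 1 gene, 396 several and 1193 none. Groups and replicate numbers came from the titles, which share no number between groups, so nothing was paired. That each array is a separate mouse follows from the design text.

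Hdh4/Q80 was compared with wild type in limma 3.58.1 (R 4.3.3; lmFit, eBayes; 4 residual and 5.81 prior degrees of freedom) over 12422 probe sets, with Benjamini-Hochberg adjustment and a threshold of 0.05. The fit was tested on simulated data. A gene with several probe sets is given by the one of highest mean. Correlations were tested by exact permutation over all 720 pairings, two-sided. The rule for named genes took every member, the other Rgs genes, up to 4 genes of smallest p per list (18 lists, 251 entries) and the 3 genes most correlated with each member. Penk, Fos, Ate1, Gnai1, Gnao1, the neighbours in gene order, Pdgfrb and Kcnj8 fall outside this rule and were picked after their values were seen. Members and lists were chosen with earlier results of these data known. Alternatives were median centring, renewed quantile normalization, cyclic loess, leaving out the dimmest 40% of probe sets, trended robust moderation, array weights, averaging the probe sets of a gene (lists) and leaving out each mouse.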

Additional observations from a re-analysis of the deposited data

How the results depend on the processing

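Under every alternative run, 0 of all probe sets, 0 of the 7 member probe sets and 0 genes of the 18 lists passed limma's test at the 0.05 threshold. At an unadjusted p under 0.05 the count over all probe sets, 634 with all mice, was 1812 with array weights, 1049 without Hdh4/Q80 replicate 7, 1153 without replicate 9, 338 without the dimmest 40%, and 406 and 251 without wild-type replicates 5 and 6. Rgs2 stayed below 0 in all 12 alternatives (-0.32 to -0.17), with unadjusted p from 0.00191 to 0.0478 and adjusted p from 0.142 to 1.0. Rgs4 stayed below 0 in 11 of 12 and turned to 0.06 with array weights. The dim filter removed Rgs9 and the dimmer Rgs5 probe set, which kept their sign in the other 11. With array weights Rgs9 was 0.17 and the dimmer Rgs5 0.14, and 3 of the 7 had an unadjusted p under 0.05, against 14.6% of all probe sets. Also with array weights the signs of the brighter Rgs5 (0.04), the dimmer Rgs16 (-0.02) and Rgs6 (0.04) turned, and Rgs10 turned after quantile normalization and cyclic loess (0.01 each). With 1 mouse left out the differences ran from -0.03 to 0.02 (brighter Rgs5), -0.03 to 0.09 and -0.05 to 0.15 (Rgs16), -0.13 to 0.03 (Rgs6), -0.10 to 0.04 (Rgs7), -0.04 to 0.02 (Rgs10) and -0.09 to 0.10 (Rgs14). The cause of these turns was not tested. Of 234 list medians under alternatives, 14 moved by more than the spread between mice. Rgs9 lay below the lower quartile of all 6 arrays.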

Other observations

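Several genes of the wider G protein pathway gave different readings on their separate probe sets. Kcnj9, a potassium channel subunit opened by G proteins, differed by -0.42 on its brightest probe set, where Hdh4/Q80 replicate 8 read 6.67, against 7.60 and 7.70 in replicates 7 and 9 and 7.66 to 7.84 in wild types. Its other probe set differed by 0.00. Ubr4, a recognition ligase of the N-degron pathway, differed by -0.06 on its brightest probe set and by 0.77 on a dimmer one (6.37 in Hdh4/Q80 and 5.61 in wild type, unadjusted p = 0.0113 in limma's test). Plcb1, the phospholipase activated by Gq, differed by 0.14 on its brightest probe set and by -0.03 and -0.19 on the others. The alpha subunit gene Gnai1 differed by -0.09 on its brightest probe set and by -0.35 on the other (unadjusted p = 0.0225 in limma's test). None of these probe sets passed the adjusted test.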
